A study of Bos taurus with 72 samples.

Results

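The effect of methionine alone was examined in 12 of the 72 libraries of the series: the 6 libraries labelled Met_1 to Met_6, from bovine mammary epithelial cells given methionine as the only essential amino acid (EAA), and the 6 labelled NEG_1 to NEG_6, from cells kept without any EAA. The libraries were chosen by these labels. Genes with a mean of at least 1 FPKM (reads on a gene scaled by its length and by the size of the library) over all 72 libraries were tested, which left 12121 of the 29550 genes in the table.

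The study kept primary mammary epithelial cells of dairy cows for 6 h in DMEM/F12-based media that differed only in their EAA, and sequenced their mRNA. NEG lacked all EAA, POS held the complete set, and each of the other 10 media was NEG plus 1 EAA: Arg, His, Ile, Leu, Lys, Met, Phe, Thr, Trp or Val. Methionine was added at 0.12 mmol/L. Per the labels, cells of 6 passages had been grown in serum with insulin, prolactin and hydrocortisone, and all groups were then starved of serum overnight. Of these 3 hormones, the study's methods name only insulin. The study calls the 6 samples of a medium biological replicates, but the sources used here do not say how many cows the cells came from, so the p-values measure the spread between these samples.

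Methionine starts nearly every protein chain, and cells also turn it into S-adenosylmethionine, the donor of methyl groups for DNA, RNA, histones and lipids. What is left after methyl transfer becomes homocysteine, which is either methylated back to methionine or passed on to cysteine, and a side branch supplies polyamines. The transcript of MAT2A, the enzyme that makes S-adenosylmethionine outside the liver, is known to be more stable when this donor is scarce. Methionine is also among the amino acids that most often limit milk protein yield in dairy rations.

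The table names genes by 27570 Ensembl identifiers and by 1980 running names, and none of them was paired with a symbol by the reference table used here. Neither MAT2A, the other genes of the methionine cycle, nor the markers that would check the epithelial label can therefore be given, and only 3 genes are named, by Ensembl identifier. A gene with a running name and the other genes are described by their length, their level and their rank.

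Whole reads could be recovered from the FPKM values. The Met libraries held between 14425798 and 16955352 reads on genes, and the NEG libraries between 15907885 and 17910737, a difference with p = 0.0693 in a two-sided exact permutation test over 924 splits (n = 6 each). Without Met_1 and NEG_2 the Met libraries were the smaller ones with an exact permutation p of 0.0397. Genes above 0 FPKM numbered 16619 to 18058 in Met and 16596 to 17707 in NEG (exact permutation p = 0.695). NEG_2 stood apart from its group, with a mean r² of 0.961 with the other NEG libraries, which had 0.982 to 0.984. Met_1 had the lowest mean r² of the Met libraries, 0.968 against 0.972 to 0.979, and the most genes above 0. In the other media, Arg_4, Leu_1 and POS_4 stood apart from their groups with 11838, 10495 and 13537 genes above 0, and POS_4 had a mean r² of 0.852 with the other POS libraries. In bulk RNA, a change in the number of cells of a kind and a change in RNA per cell cannot be told apart.

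Adding methionine alone moved many genes by small amounts and few by large ones. Differentially expressed genes (DEG) were taken as those with an unadjusted p under 0.05 in limma and a change of more than 1 on the log2(FPKM + 1) scale, and 458 genes, or 3.78% of those tested, were DEG. The study set its fold limit on another scale, and the added 1 FPKM makes the limit stricter for low genes: with a pseudocount of 0.1 there were 818 DEG, and with voom on recovered reads 772. Of the 458 DEG, 75 (0.619%) were higher in Met and 383 (3.16%) were lower. By an adjusted p under 0.05 alone (limma, Benjamini-Hochberg), 5778 genes (47.7%) differed between Met and NEG, 2149 higher (17.7%) and 3629 lower (29.9%). With limma's sample weights the counts were 797 DEG and 8989 genes by adjusted p. The FPKM ranges of the 6 Met and the 6 NEG libraries did not overlap for 2707 genes (22.3%).

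The direction of this balance depended on scaling. The median log2 change of all tested genes was -0.06 with the FPKM as deposited and 0.15 once libraries were rescaled to the same FPKM sum, and with that scaling 248 DEG were higher and 120 lower. The 4 genes described in full below kept their direction under both scalings. Without Met_1 alone 715 genes were DEG, and without Met_1 and NEG_2 together 545 were (70 higher and 475 lower). Of the 458 DEG, 408 were found again without both libraries, 89.1% of the first list and 74.9% of the second.

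The DEG higher and lower in Met differed in length and in the reads behind them. The 75 that were higher in Met had a median length of 130 bp, and 56 of them (74.7%) were shorter than 300 bp, beside 541 (4.46%) of all tested genes. They rested on few reads, a median of 11 a library, and 29 of them were listed at 0 in at least 1 NEG library. The 383 that were lower in Met had a median length of 1207 bp and a median of 419.5 reads, and 20 of them (5.22%) were shorter than 300 bp. Of all 383, only 1 was at 0 in a NEG library, and 15 were at 0 in a Met library. Gene lengths are those recovered from the FPKM. They are exact only up to a whole divisor for genes with very few reads.

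The change from NEG to Met also shifted with gene length across the whole table. When genes were split by length into 5 classes of about equal size, the shortest, with a median of 721 bp, had a median log2 change of -0.21. The change was -0.21 in the next class (1605.5 bp), -0.12 in the third (2342 bp), -0.01 in the fourth (3237.5 bp) and 0.17 in the longest (4998 bp). The DEG lower in Met numbered 198, 107, 56, 20 and 2 from the shortest class to the longest. Those higher in Met did not follow the medians, since 60 of the 75 were in the shortest class and 3 to 5 in each of the others. Without Met_1 and NEG_2 the medians ran from -0.20 in the shortest class to 0.10 in the longest. Against the mean of the other 9 single-EAA groups the medians lay between -0.002 and 0.013 in every class, with no order by length. When a trend on length was removed from each library, 253 genes were DEG, 87 higher and 166 lower.

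**Figure D1:**
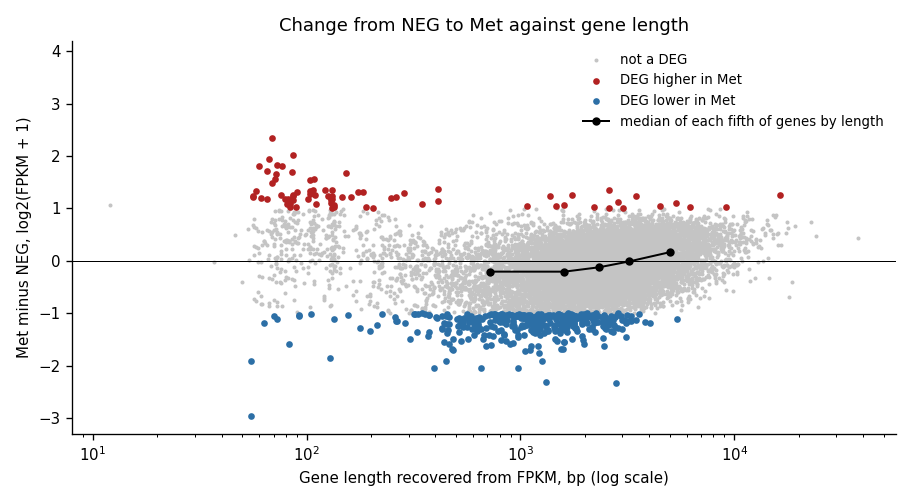
Change from NEG to Met in log2(FPKM + 1) (vertical axis) against recovered gene length in bp (horizontal axis, log scale) for the 12121 tested genes. Red points are the 75 DEG higher in Met, which lie mostly among short genes, blue points are the 383 DEG lower in Met, and the black line joins the medians of the 5 length classes, from -0.21 to 0.17.

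The genes that changed most were ranked among those whose Met and NEG libraries did not overlap in FPKM and whose adjusted p was under 0.05 (2649 genes, 972 higher and 1677 lower). Of the 10 largest rises, 6 were of genes shorter than 300 bp. Without Met_1 and NEG_2 the log2 changes of the 10 rises ran from 0.95 to 2.25, and 3 of them, of genes of 2608, 1743 and 110 bp, went from 1.36, 1.26 and 1.26 to 0.99, 0.95 and 0.99, under the fold limit of 1. The 10 largest falls ran from -3.35 to -1.62 without both libraries. The largest rise was of a gene of 69 bp, whose FPKM had a minimum, median and maximum of 1.07, 3.10 and 6.41 in NEG and of 8.35, 22.4 and 32.8 in Met. Its log2 change was 2.34 (SE 0.35, limma adjusted p = 0.000608), but it rested on a median of 3.5 reads in NEG and 23 in Met, and it differed from the mean of the other 9 EAA by 0.48 (adjusted p = 0.58).

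The tenth rise was of another kind, a gene of 3489 bp with medians of 3373.5 reads in Met and 1394.5 in NEG. Its FPKM was 21.8 at the lowest, 24.3 at the median and 32.1 at the highest in NEG, and 44.2, 64.5 and 81.3 in Met. All Met libraries lay above all NEG libraries, and the log2 change was 1.24 (SE 0.14, limma adjusted p = 0.000227). Of the 12 media, Met gave the highest mean, 62.7 ± 12.97 FPKM (SD, n = 6), and POS the lowest, 4.73. Met exceeded the mean of the other 9 EAA by 0.92 for this gene (adjusted p = 1.36e-08), and it was the only rise of the 10 that passed this test. The gene did not pass the stricter test against each of the other 9 EAA, described below. For the other 9 rises NEG had the lowest mean of all 12 media.

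The largest fall was of a gene of 55 bp that went from an FPKM median of 45.4 in NEG (28.3 to 70.9) to 7.5 in Met (0 to 18.6), a log2 change of -2.96 (SE 0.63, limma adjusted p = 0.0030) on medians of 40.5 and 6 reads. The second, ENSBTAG00000020873, is described below. The third was of a gene of 1221 bp with FPKM medians of 74.9 in NEG (72.6 to 130) and 20.9 in Met (16.3 to 44.6), a log2 change of -1.76 (SE 0.21, adjusted p = 0.000292). That gene was also low under other EAA: Met differed from the mean of the other 9 by -0.48 (adjusted p = 0.67). NEG gave the highest mean of all 12 media for 8 of the 10 largest falls, and ENSBTAG00000020873 was the only one of the 10 that differed from the mean of the other 9 EAA with an adjusted p under 0.05.

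To separate what methionine did from what any single EAA did, Met was set against each of the other 9 single-EAA groups in 1 limma fit. The fewest genes differed from Lys, 273 with an adjusted p under 0.05 (2.25% of those tested), then Trp with 392 (3.23%), His with 428 (3.53%) and Ile with 608 (5.02%). Arg differed from Met in 1931 genes (15.9%), Val in 1932 (15.9%) and Leu in 2316 (19.1%). Phe with 3125 genes (25.8%) and Thr with 4428 (36.5%) had the most. Differences of more than 1 on the log2 scale were few against Lys (3 higher and 4 lower in Met), Trp (1 and 4), His (1 and 4) and Ile (4 and 11). Thr had 154 such genes lower in Met and 18 higher, and Phe 112 lower and 11 higher. Leu had 109 higher and 36 lower, more in all than Phe, so that the order of the EAA depended on the measure. Arg had 83 higher and 33 lower, and Val 60 and 37. Without Met_1 the 4 nearest EAA gave 255 genes for Lys, 376 for Trp, 309 for His and 596 for Ile. Leu gave 1362, Val 1452, Arg 1911, Phe 4006 and Thr 5238, so that Leu then had fewer than Val and Arg. Against the mean of the other 9, 952 genes (7.85%) differed, 2430 did once Arg_4 and Leu_1 were left out, and 6363 with sample weights.

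**Figure D2:**
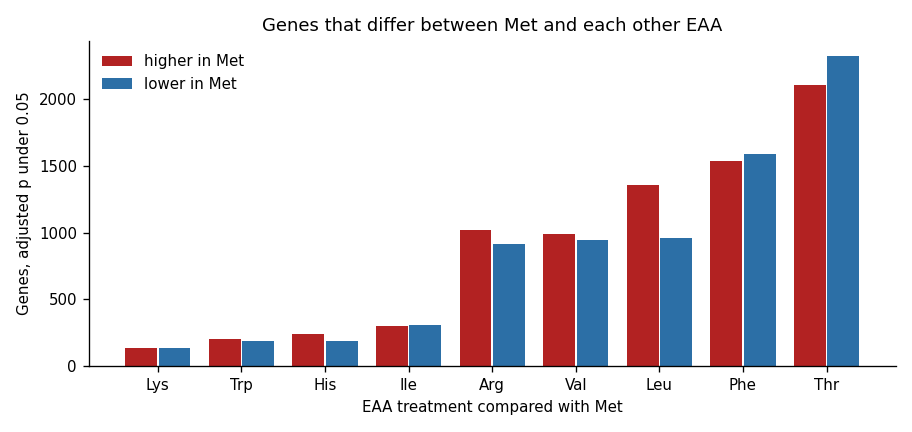
Number of genes (vertical axis) with an adjusted p under 0.05 between Met and each other single-EAA treatment (horizontal axis), split by direction. Bars rise from 138 higher and 135 lower in Met against Lys to 2107 and 2321 against Thr.

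A gene was counted as changed by methionine beyond the other EAA where Met lay on 1 side of NEG and of all 9 other groups, with the largest of the 9 p-values adjusted to under 0.05 and an adjusted p under 0.05 against NEG. By this test 13 genes passed (0.107% of those tested), 7 higher and 6 lower in Met. The same test gave 50 genes for Arg, 1 each for Leu and Trp and 0 for the other 6 EAA. These counts were made with all libraries, Arg_4 and Leu_1 included, and were not repeated under other settings. Every Met library lay beyond all 54 libraries of the other 9 EAA for 23 (0.19%) of the 12121 tested genes, and 9 of the 13 were among them. The 13 genes were between 2043 and 8570 bp long (median 2622 bp), so that none was one of the short genes that made up most of the DEG higher in Met. All 13 passed again without Met_1 and NEG_2, when 1 further gene joined them. Without Arg_4 and Leu_1, 36 genes passed, and with sample weights 82 did (52 higher and 30 lower), the 13 included both times. Other settings lost members: equal FPKM sums gave 12 genes with 10 of the 13 among them, voom 11 with 10, a pseudocount of 0.1 gave 11, all of them among the 13, and removal of the length trend 17 with 12. Scaling by total recovered reads gave 11, also all among the 13.

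The last genes to pass had adjusted p-values of 0.044 (a rise) and 0.018 (a fall). The first that did not had adjusted p-values of 0.12 (a fall), 0.18 (a rise) and 0.20 (a fall).

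**Figure D3:**
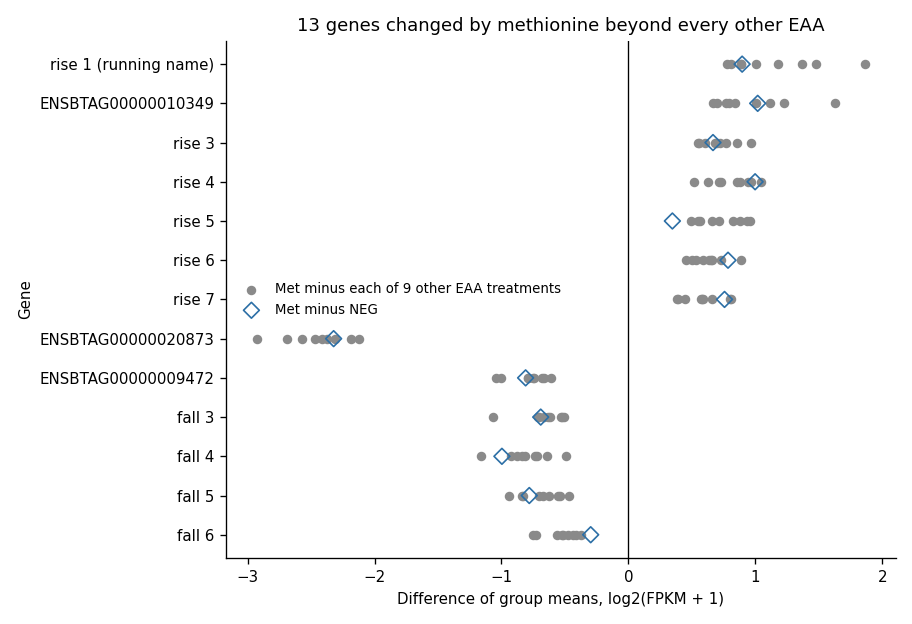
Difference of Met from each of the other 9 single-EAA groups (grey points) and from NEG (open diamonds) in log2(FPKM + 1) (horizontal axis) for the 13 genes changed by methionine beyond the other EAA (vertical axis), ordered by their smallest difference. ENSBTAG00000020873 stands alone, between -2.12 and -2.93 from every other EAA.

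ENSBTAG00000020873, of 2809 bp, differed most between Met and the nearest other EAA among the tested genes that passed beyond all 9. Its FPKM had a minimum, median and maximum of 270, 289 and 317 in NEG and of 50.7, 58.0 and 67.4 in Met, on 10231 to 14489 reads in NEG and 2225 to 2843 in Met. The groups lay far apart, and no Met library came near any other single-EAA library, of which the lowest had 244 FPKM and the highest 514. The mean was 294 ± 17.6 in NEG and 58.1 ± 5.91 in Met (SD, n = 6 each), or 5.06-fold lower in Met, with a log2 change of -2.32 (SE 0.086, limma adjusted p = 3.25e-09). The nearest EAA was Thr, at a difference of -2.12 (SE 0.094), and the farthest was Val, at -2.93, with an adjusted p of 6.87e-25 for all 9 together. It was the only one of the 13 genes passing this test that Met moved beyond each of the other 9 EAA by more than 1 on the log2 scale.

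In POS, where methionine comes with all other EAA, ENSBTAG00000020873 was also low, with 84.9 FPKM at the lowest, 92.5 at the median and 104 at the highest. POS fell by 1.64 on the log2 scale from NEG (SE 0.10, limma adjusted p = 2.24e-07), a comparison that shares its NEG libraries with that of Met. Every POS library lay above every Met library, so that Met alone gave the lowest level of the 12 media (exact permutation p = 0.0022, n = 6 each, adjusted p = 0.0029 over the 4 genes described in full). These 4 genes were chosen by the values of the same Met libraries. For each of them, the p-values of Met against POS are therefore descriptive and give no independent support. Without POS_4 the change from NEG to POS was -1.66 (adjusted p = 1.78e-08), and Met stayed below POS (exact permutation p = 0.0022, adjusted p = 0.0043). Between the 2 media that held methionine and the 10 that did not, there was no overlap. Among those 10, group means ran from 256 in Thr to 452 in Val with NEG inside that range, and the ranges of neighbouring groups overlapped.

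**Figure D4:**
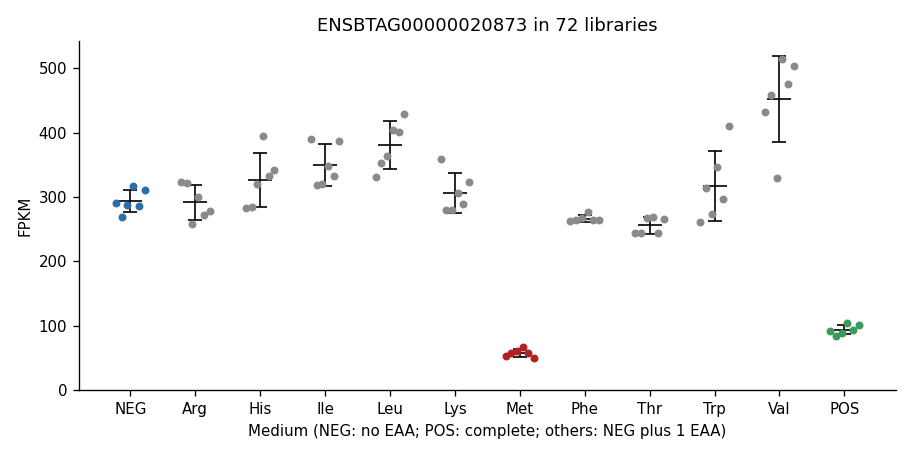
FPKM of ENSBTAG00000020873 (vertical axis) in each of the 72 libraries by medium (horizontal axis), with the group mean and SD as bars (n = 6 each). The 6 Met libraries (50.7 to 67.4) and the 6 POS libraries (84.9 to 104) lie below all others.

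ENSBTAG00000009472, of 2043 bp, fell less and from a lower level. Its FPKM was 11.2, 12.0 and 16.0 in NEG (minimum, median and maximum) and 5.75, 6.70 and 8.14 in Met. All Met libraries lay below all NEG libraries and below all 54 of the other EAA, of which the lowest had 10.0. The log2 change from NEG was -0.81 (SE 0.10, limma adjusted p = 0.000311), and the nearest EAA was again Thr, at -0.61 (SE 0.074, adjusted p for all 9 = 3.54e-07). POS had 7.43, 7.77 and 9.86 FPKM, a log2 change from NEG of -0.58 (SE 0.12, adjusted p = 0.0024). The POS range overlapped that of Met, though the Met mean of 6.77 was below the POS mean of 8.10 (exact permutation p = 0.017, also after adjustment over these 4 genes). Without POS_4, the highest POS library, the POS mean was 7.74 (exact permutation p = 0.035, also after adjustment), and the change from NEG to POS was -0.63 (limma adjusted p = 0.000287).

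A gene of 2289 bp with a running name was the one whose rise was largest beyond the other EAA. Its FPKM was 1.53, 2.33 and 2.54 in NEG and 4.39, 4.92 and 5.23 in Met, on 54 to 100 and 153 to 203 reads. Every Met library was above every NEG library and above the highest of the other 54, at 3.30. The log2 change was 0.90 (SE 0.10, limma adjusted p = 0.000227), and the nearest EAA was Lys, at 0.77 (SE 0.14, adjusted p for all 9 = 0.0024). The lowest of the 54 were Arg_4 and Leu_1, listed at 0, and with a pseudocount of 0.1 in place of 1, or with counts in voom, the adjusted p for all 9 was 1.0 in both cases although the difference from the nearest EAA was then 0.97 and 0.99.

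POS took this gene of 2289 bp the other way. It was listed at 0 in most POS libraries, with at most 2 reads in any of them, and its change from NEG to POS was -1.63 on the log2 scale (SE 0.11, limma adjusted p = 4.18e-07). The gene was thus above the NEG level with methionine alone and below it with methionine among all EAA. Means of other single EAA below the NEG mean of 2.18 FPKM were 0.645 (Arg), 1.23 (Leu), 1.28 (Val), 1.61 (Phe) and 1.95 (Ile). The remaining means were 2.18 (Thr), 2.19 (Trp), 2.39 (His) and 2.44 (Lys). Met and POS did not overlap (exact permutation p = 0.0022, n = 6 each). Without POS_4 the change from NEG to POS was -1.63 (limma adjusted p = 2.63e-07), and Met lay above POS with an exact permutation p of 0.0022. Another gene changed beyond the other EAA, of 4306 bp, also rose from NEG to Met (0.67) and fell from NEG to POS (-0.64, limma adjusted p = 0.0015).

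ENSBTAG00000010349, of 2212 bp, rose with a wider spread. Its FPKM was 2.20, 2.96 and 3.78 in NEG and 4.89, 7.09 and 11.3 in Met, where Met_4 was the highest library and Met_6 and Met_1 the lowest. The Met and NEG ranges did not overlap, but the highest library of the other EAA, in Val, reached 5.37 and so exceeded the lowest Met libraries. The log2 change from NEG was 1.02 (SE 0.17, limma adjusted p = 0.000892), a change that fell under 1 without Met_4 (0.89), Met_5, NEG_3 or NEG_5, and the nearest EAA was Lys, at 0.67 (SE 0.13, adjusted p for all 9 = 0.0032). After rescaling to the same FPKM sum that p was 0.13. POS had 1.44, 2.70 and 3.45 FPKM and differed from NEG by -0.16 (SE 0.16, adjusted p = 0.45). All POS libraries lay below all Met libraries (exact permutation p = 0.0022, n = 6 each). Without POS_4 the difference of POS from NEG was -0.058 (limma adjusted p = 0.75), and that of Met from POS had an exact permutation p of 0.0065.

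**Figure D5:**
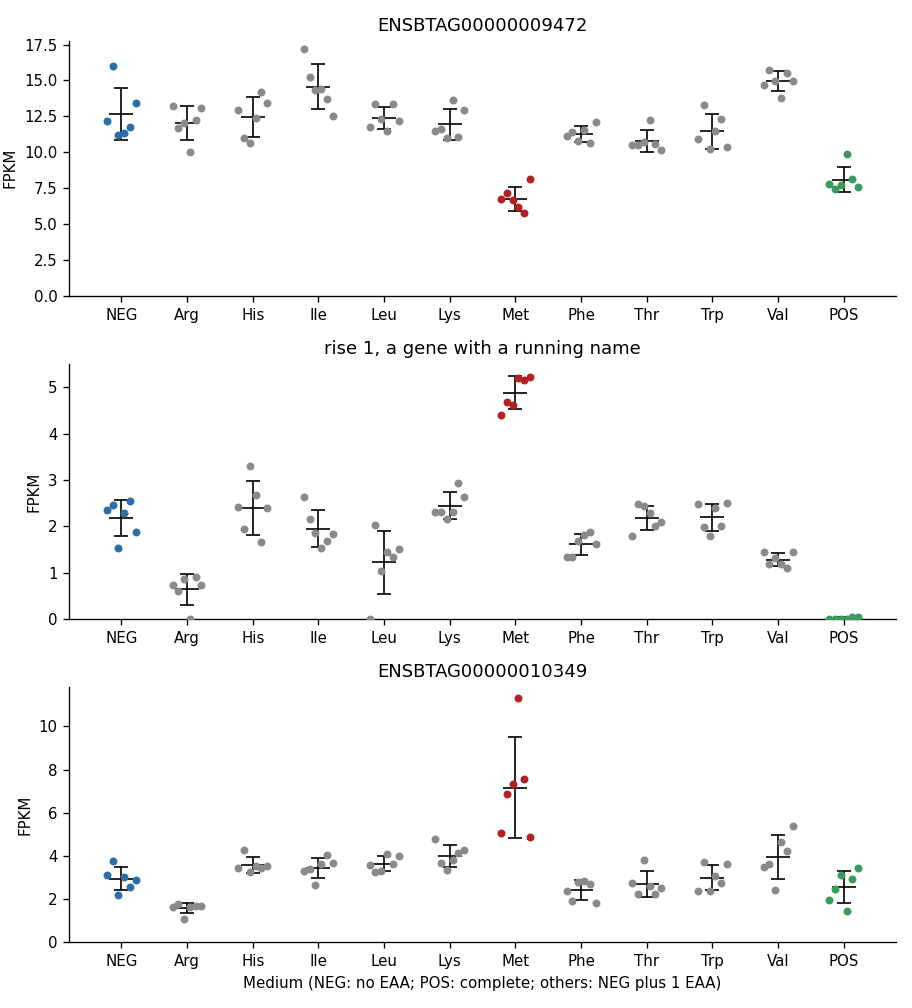
FPKM (vertical axes) of ENSBTAG00000009472, the running-name gene of 2289 bp (rise 1) and ENSBTAG00000010349 in each of the 72 libraries by medium (horizontal axis), with the group mean and SD as bars (n = 6 each). Met is lowest for the first and highest for the other genes, and POS is near 0 only for the running-name gene.

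The other 9 of the 13 genes lay closer to the nearest EAA, at smallest differences between 0.38 and 0.55 on the log2 scale. The most abundant was a gene of 2395 bp, with 80.1, 90.5 and 97.7 FPKM in NEG and 102, 114 and 124 in Met. Its change from NEG was small, 0.35 (SE 0.081, limma adjusted p = 0.0046), and larger against the mean of the other 9 EAA, 0.73 (adjusted p = 1.65e-17), since their group means, 58.3 to 80.8, lay below that of NEG. The longest, of 8570 bp, had 0.873, 1.71 and 1.76 FPKM in NEG and 3.26, 4.09 and 4.45 in Met, a log2 change of 0.998 (SE 0.12, adjusted p = 0.000227). Both genes had Met libraries above all 54 others.

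Among the falls, a gene of 2099 bp had 57.8, 60.5 and 84.1 FPKM in NEG and 28.3, 31.4 and 34.3 in Met, a log2 change of -0.997 (SE 0.10, limma adjusted p = 0.000146). In POS it was lower still, with 16.1 in POS_4 and 20.7 to 22.8 in the others. The nearest EAA for this gene was Arg, at -0.49, and only Arg_4 (28.4) and Leu_1 (31.0) of the 54 other libraries reached the Met range. A gene of 3892 bp was the only one of the 13 whose Met and NEG ranges overlapped, with 11.7, 12.96 and 13.7 FPKM in NEG and 8.57, 10.1 and 12.4 in Met. Its log2 change from NEG was -0.30 (SE 0.098, adjusted p = 0.023), and in POS it had 11.2, 14.9 and 16.5 FPKM, a change of 0.16 (SE 0.11, adjusted p = 0.28).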

How the data were processed

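RNA-seq was made from 6 samples of each of 12 media. The authors deposited 1 table of FPKM per gene and library, normalised by them to gene length and library size, and no other scaling was applied. The submitters' processing notes name HISAT2 2.0.5, featureCounts 1.5.0-p3, StringTie 1.3.3b and DESeq2 1.20.0; those sources name no genome build. DESeq2 was not run here.

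Values were analysed as log2(FPKM + 1) with limma 3.58.1 (trended prior) in R 4.3.3, keeping genes that averaged 1 FPKM or more over 72 libraries. Met and NEG were compared in a fit of their 12 libraries, and Met was compared with each other EAA in a fit of the 60 single-EAA libraries, the p for all 9 being the largest of the 9, adjusted over all genes by Benjamini-Hochberg. Fold changes on this scale understate the change of low genes. Single values per library were compared by two-sided exact permutation tests. Met and NEG libraries were taken from the labels, and the replicate numbers were not used to pair samples.

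Whole reads and gene lengths were recovered from the steps of the low FPKM values, and totals were 12006111 to 18602430 reads a library (depth limits low genes). Lengths were chosen so that reads came out whole. That 100.0% of values lay within 0.001 of a whole read count is therefore no check of the recovery. Intervals were not used. The scripts were tested on simulated data. Genes described in full were, for the effect beyond the other EAA, the 2 rises and 2 falls whose difference from the nearest EAA was largest (1 rise has a running name that is not printed), and for Met against NEG values are given for 5 of the 10 largest rises and 10 largest falls, of which only ENSBTAG00000020873 is named; the others are covered by counts. Of 29550 identifiers, 0 matched the 37063 rows of the RefSeq gene table (ARS-UCD2.0), so that 19 gene lists by symbol, cell type markers included, were not run and no sequence is shown. The comparison of those 4 genes between Met and POS was added after their values were seen, on genes chosen by the same Met libraries. The members, lists and tests were chosen with earlier results of these data known.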

Additional observations from a re-analysis of the deposited data

Results flagged for a closer look

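Library totals, genes above 0 and the mean r² with the other libraries of the group were examined in all 12 media, and the FPKM of the 4 genes described in full in Met and NEG, 44 groups of 6 values in all, and in 15 of them 1 library lay beyond Dixon's 95% limit (chance gives about 1 in 20). Among Met and NEG there was 1 such value, the mean r² of 0.961 of NEG_2, with the nearest at 0.982. Leaving NEG_2 out gave 325 DEG between Met and NEG. By mean r² the others were Arg_4 (0.839), Ile_1 (0.954), Leu_1 (0.777), Lys_1 (0.974), POS_4 (0.852), Thr_3 (0.981) and Val_3 (0.934). By genes above 0 they were Arg_4 (11838), Ile_1 (15211), Leu_1 (10495), POS_4 (13537) and Val_3 (18393), and by reads on genes Arg_4 (12803214) and Val_3 (18379952).

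The effect of Met differed from that of every other single EAA for the 4 genes described in full, with smallest differences in log2(FPKM + 1) of 0.77 for the running-name gene of 2289 bp, 0.67 for ENSBTAG00000010349, -2.12 for ENSBTAG00000020873 and -0.61 for ENSBTAG00000009472, by the largest of 9 limma p-values after adjustment. These genes were chosen by this same test on the same libraries, so that it adds no support to their choice. The running-name gene and ENSBTAG00000010349 lost this call under some other settings, given below.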

How the results depend on the processing

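The number of DEG between Met and NEG was 458, and it became 818 with a pseudocount of 0.1, 797 with sample weights, 772 (252 higher, 520 lower) with voom on recovered reads and 253 after removal of the length trend, an alternative chosen after seeing the data. With library totals of recovered reads as the scale, also chosen after seeing the data, it was 365 (98 higher, 267 lower), and with equal FPKM sums 368 (248 higher, 120 lower). With the fold limit and an adjusted p under 0.05 it was 450. Leaving out 1 library gave 325 to 715. Genes with an adjusted p under 0.05 against NEG numbered 8989 with sample weights and 4637 to 6589 with 1 library left out, and with equal FPKM sums 3953 were higher and 1955 lower. Genes changed beyond the other 9 EAA numbered 82 with sample weights, 36 without Arg_4 and Leu_1, and 11 to 14 with 1 library left out; against the mean of the 9 the counts were 6363, 2430 and 647 to 1003. The cause of these shifts was not tested. Of 156 values of the 4 genes described in full under other settings, 153 stayed on the same side of an adjusted p of 0.05, 3 lost significance and 0 turned direction: those lost were the all-EAA test of the running-name gene with voom and with a pseudocount of 0.1, and of ENSBTAG00000010349 with equal FPKM sums. By the fold limit of 1, ENSBTAG00000010349 (1.02) fell to 0.89 to 0.995 without Met_4, Met_5, NEG_3 or NEG_5, and the running-name gene (0.90) rose to 1.15 with a pseudocount of 0.1, 1.07 with equal FPKM sums, 1.04 with the length trend removed and 1.25 with voom. Leaving out a NEG library cannot touch the comparison with the other EAA, and those values were not counted. Leaving out POS_4, chosen after seeing the data, changed no call on POS for these genes.

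Mean reads on genes per library were lower in Met by between -1388274 and -855780 with 1 library left out (exact permutation p = 0.043 without Met_1 and 0.028 without Met_5), and by -1444061 without Met_1 and NEG_2 together (p = 0.040), while mean genes above 0 differed by -295 to -7.47 with 1 library left out and by -430.2 without both (exact permutation p = 0.071), beside -114.8 in all libraries.

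Same-numbered Met and NEG libraries did not deviate together (correlations of -0.21 to 0.062, and 0 of 6 libraries matched best with their own number). With the replicate number as a block the counts were 458 DEG (76 higher, 382 lower), 4904 genes with an adjusted p under 0.05, 12 beyond the other 9 and 963 against their mean.

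The DEG higher in Met rested on a median of 11 reads a library, which limits the precision of their changes.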
